A study of Homo sapiens with 29 samples.

Results

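The genes described here are the chaperones and co-chaperones of the array, chosen by symbol: names that begin with DNAJ, HSP and a family letter from A to H followed by a digit or A, CCT, PDIA, BAG or FKBP. This rule found 30 of 14884 genes that the platform annotation names, each represented by the probe set with the highest mean. Of these, 19 exceeded a log2 value of 5 on at least 2 arrays and were tested, among 6529 genes that did so, and 11 did not exceed 5 on any array. By location, 20 are cytosolic chaperones or co-chaperones (14 tested), HSPA9 and HSPD1 lie in mitochondria and FKBP7 lies in the endoplasmic reticulum (ER). The other 7 are the antisense RNAs DNAJC9-AS1 and DNAJC27-AS1, the readthrough HSPB2-C11orf52, the pseudogenes FKBP9P1 and HSPA7, HSPBAP1, which binds the small heat shock protein HSPB1, and HSPG2, which is perlecan, a basement membrane proteoglycan and not a chaperone. The label therefore fits the cytosolic genes best: the DNAJ entries are antisense RNAs, and DNAJ co-chaperones, the TRiC chaperonin, protein disulphide isomerases, HSPA5, HSPA8 and HSPE1 were not analysed here.

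The study followed HepG2, a human hepatoblastoma-derived liver cell line, after treatment with CCL, a preparation of the herb Cratoxylum cochinchinense Lour, on 29 Affymetrix arrays. CCL-treated cells were sampled at 6, 12 and 18 h (3 arrays each) and at 24 and 48 h (2 arrays each). Untreated cells were sampled at 0 h (2 arrays), 6 h (3), 12 h (3), 18 h (2), 24 h (3) and 48 h (3). All groups are the same cell line with no genetic change stated, and the labels give no dose and no vehicle, so the untreated cells are not shown to be a vehicle control. Arrays are numbered by the set given in the labels; CCL at 24 and 48 h has sets 1 and 2, and untreated cells at 0 and 18 h have sets 1 and 3. The labels do not say whether sets are separate cultures, so p-values measure the spread between these arrays, which may be technical.

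All values are log2 expression values from robust multi-array averaging. The median of all probe sets ran from 2.29 on the untreated 18 h array of set 1 to 3.39 on the CCL 18 h array of set 3, and these were among 6 arrays whose median differed by over 0.1 from that of the arrays of the same time, or at 18 h from that of all arrays (CCL 6 h set 1, CCL 18 h set 3, CCL 24 h set 1, CCL 48 h set 1, untreated 18 h set 1 and untreated 24 h set 1). The median difference, CCL minus untreated, of all 6529 genes was 0.41 at 18 h and -0.26 at 48 h, and 0.00 and -0.05 after quantile normalization, which gives all arrays the same distribution. Those 6 are called arrays of unusual median below, for their time only. Overlap between groups is stated for the deposited values, and the counts after quantile normalization follow further on. Of the hepatocyte markers, 7 of 9 were named and all 7 exceeded 5 on all 29 arrays, with ALB between 11.75 and 12.11. Of the markers of other cell types, LYZ exceeded 5 on all arrays, while CD14, PECAM1, VWF and DCN did so on none. In bulk RNA, fewer cells of a type and less RNA per cell cannot be told apart.

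Chaperones bind unfolded proteins and help them reach or regain their folded state. HSP70 proteins do this in cycles of ATP hydrolysis: J-domain proteins start the cycle, and HSP110 and BAG proteins release the nucleotide. Heat shock factor HSF1 induces the cytosolic set through heat shock elements in promoters, whereas misfolded protein in the ER induces the ER set through the sensors IRE1 (ERN1), PERK and ATF6.

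The promoters of 6 members are printed as examples. They were picked with or without a match to the heat shock element, so they do not show how often it occurs. Sequences are from RefSeq (GRCh38.p14), 250 bases upstream of the gene start, read 5′ to 3′ on the gene's strand, with matches to the 2-unit or 3-unit heat shock element in capitals. HSPA6, HSPA1A and HSPB1 were picked because they have a match. HSPH1, HSPBAP1 and FKBP7 were picked among the members that differed between CCL and untreated cells because they have none in this window. Whether a match goes with such a difference was not tested. The windows are chr1:161524290-161524539 (plus strand) for HSPA6, chr6:31815293-31815542 (plus strand) for HSPA1A, chr7:76302423-76302672 (plus strand) for HSPB1, chr13:31162389-31162638 (minus strand) for HSPH1, chr3:122793832-122794081 (minus strand) for HSPBAP1 and chr2:178478601-178478850 (minus strand) for FKBP7.
HSPA6: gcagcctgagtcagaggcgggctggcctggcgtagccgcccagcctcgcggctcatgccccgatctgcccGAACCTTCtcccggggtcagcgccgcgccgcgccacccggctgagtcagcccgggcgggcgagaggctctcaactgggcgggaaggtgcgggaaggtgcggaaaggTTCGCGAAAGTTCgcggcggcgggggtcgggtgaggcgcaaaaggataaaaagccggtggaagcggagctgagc
HSPA1A: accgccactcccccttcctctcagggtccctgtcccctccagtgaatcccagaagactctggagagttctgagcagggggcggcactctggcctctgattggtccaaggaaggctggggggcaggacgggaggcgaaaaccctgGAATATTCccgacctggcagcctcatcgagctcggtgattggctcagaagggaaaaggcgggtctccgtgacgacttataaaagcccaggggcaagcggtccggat
HSPB1: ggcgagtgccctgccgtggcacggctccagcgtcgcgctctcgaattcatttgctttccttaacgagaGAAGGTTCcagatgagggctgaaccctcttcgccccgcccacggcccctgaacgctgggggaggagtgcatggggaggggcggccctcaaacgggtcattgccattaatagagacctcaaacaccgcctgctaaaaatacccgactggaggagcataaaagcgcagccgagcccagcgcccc
HSPH1: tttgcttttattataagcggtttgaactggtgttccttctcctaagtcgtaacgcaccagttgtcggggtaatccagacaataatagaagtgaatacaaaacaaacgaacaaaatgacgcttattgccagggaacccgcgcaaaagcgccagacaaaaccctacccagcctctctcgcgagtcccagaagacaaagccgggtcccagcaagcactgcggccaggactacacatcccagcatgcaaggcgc
HSPBAP1: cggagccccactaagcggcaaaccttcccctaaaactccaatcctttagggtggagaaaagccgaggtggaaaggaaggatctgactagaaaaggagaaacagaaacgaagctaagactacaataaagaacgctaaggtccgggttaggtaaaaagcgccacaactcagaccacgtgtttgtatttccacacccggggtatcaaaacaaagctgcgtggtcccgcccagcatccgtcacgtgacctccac
FKBP7: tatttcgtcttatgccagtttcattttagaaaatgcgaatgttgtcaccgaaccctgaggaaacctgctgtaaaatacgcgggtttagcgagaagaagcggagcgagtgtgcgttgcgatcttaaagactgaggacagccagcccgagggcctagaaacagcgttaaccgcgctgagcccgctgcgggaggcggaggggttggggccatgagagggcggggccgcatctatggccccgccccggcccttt

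Motifs were searched on both strands in 300 bases (250 before the start and 50 from it) of 27305 promoters. The head-to-head form GAANNTTC was in 7 of the 24 members with a promoter sequence (HSPA1A, HSPA1B, HSPB1, BAG2, HSPA1L, HSPB8 and HSPA6), against 6.87% of all promoters. These 7 are not independent. HSPA1A and HSPA1L are neighbours whose windows overlap and hold the same match, and HSPA1B is a near-identical copy of HSPA1A. The tail-to-tail form TTCNNGAA was in HSPA9, HSPA6 and HSPB3, against 7.84% of all promoters. The 3-unit form, GAANNTTCNNGAA or TTCNNGAANNTTC, which contains both shorter forms, was in HSPA6 alone among the members, against 0.487% of all promoters. The ER stress response element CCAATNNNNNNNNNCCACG (0.0806% of promoters) and the C/EBP-ATF element TGATGCAA (0.923%) were in 0 of 24 members. A match is a string of letters and not a shown binding site.

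Averaged over the 5 times, 5 of the 19 tested members differed between CCL-treated and untreated cells (limma, Benjamini-Hochberg adjusted p under 0.05 over 6529 genes), in a comparison that called 24.6% of all tested genes. HSPBAP1 and the HSP110 protein HSPH1 were higher with CCL, and the HSP110 relative HSPA4L, the co-chaperone BAG4 and the ER isomerase FKBP7 were lower. The 5 called members make up a share close to that of all genes. The median difference was 0.01 over the members and 0.01 over all genes, and 0.00 over the 14 cytosolic members. HSPA1A, HSPA1B, HSPB1 and both mitochondrial chaperones did not pass the test. The map of fold changes by time shows how each mean arose, and the plot of mean differences shows their intervals.

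**Figure D1:**
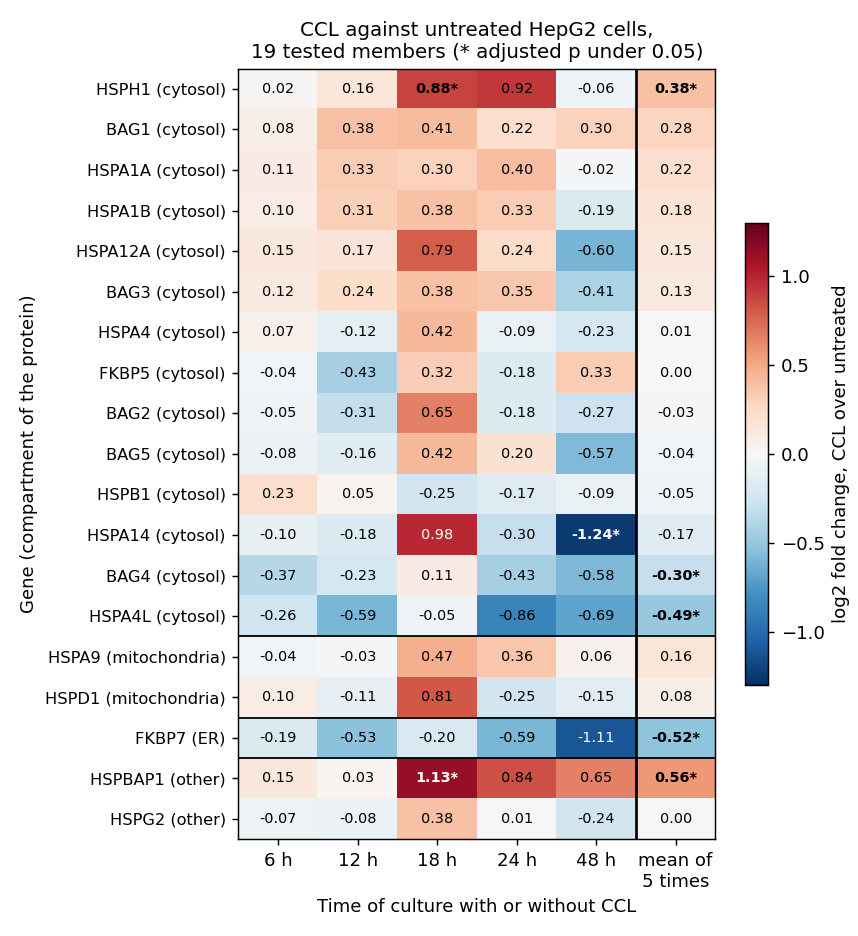
Log2 fold change, CCL over untreated, of the 19 tested members (rows, by compartment) at the 5 times and as their mean (columns); colour and printed value give the fold change, and an asterisk marks a limma adjusted p under 0.05. HSPBAP1 and BAG1 are positive at all 5 times, as are 977 of all 6529 tested genes. HSPA4L and FKBP7 are negative at all 5, as are 555 of all tested genes. The 18 h column is mostly positive, where the median of all genes was 0.41.

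**Figure D2:**
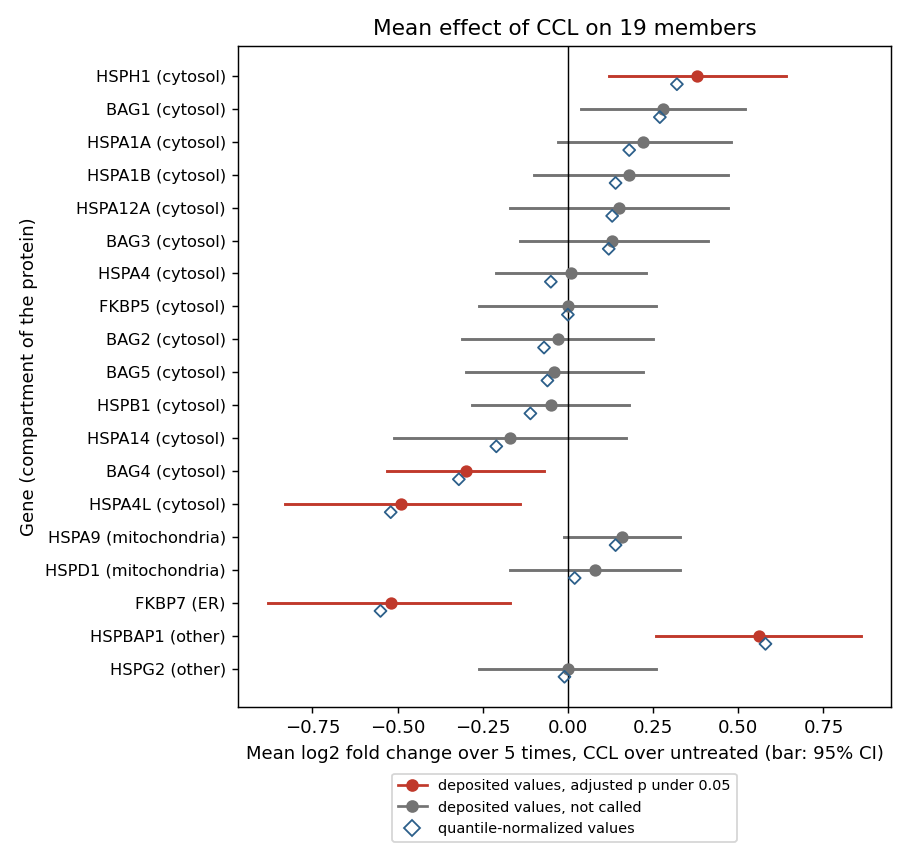
Mean log2 difference, CCL minus untreated, over the 5 times for each tested member (points, with 95% confidence intervals as lines; open diamonds, quantile-normalized values). HSPBAP1 at 0.56 and HSPH1 at 0.38 lie above 0, and FKBP7 at -0.52, HSPA4L at -0.49 and BAG4 at -0.30 lie below it.

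Among the inducible cytosolic chaperones, HSPA1A and HSPA1B encode nearly identical HSP70 proteins that accumulate under proteotoxic stress. HSPA1A (6:31815543-31817942) had log2 values of 10.45, 10.45 and 9.26 in CCL-treated cells at 6 h, against 10.10, 9.56 and 10.17 in untreated cells. At 12 h it had 10.28, 10.21 and 10.52 with CCL, against 9.94, 10.08 and 9.99 untreated, and the groups did not overlap. They overlapped at 18 h, with 9.85, 10.06 and 10.69 with CCL against 9.85 and 9.95 untreated. At 24 h CCL arrays had 10.34 and 10.12, above the 9.53, 9.99 and 9.99 of untreated arrays, and at 48 h the values were 10.15 and 9.77 with CCL against 10.04, 9.80 and 10.10 untreated. The mean difference of HSPA1A was 0.22 ± 0.13 (SE; 95% confidence interval -0.03 to 0.48; limma adjusted p = 0.204), so a mean rise of up to 0.48 is not excluded by the interval. The CCL 6 h array of set 3, at 9.26, was the lowest of the 29 for this gene, and without it the mean was 0.30 (limma adjusted p = 0.0367). With the 6 arrays of unusual median left out it was 0.04.

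HSPA1B (6:31827738-31830254) followed HSPA1A over the 29 arrays (Pearson's r = 0.971), and because the genes are near-identical copies their signals cannot be told apart. Its values at 12 h were 10.26, 10.23 and 10.57 with CCL, whereas no untreated array exceeded 10.11, again without overlap. Its mean difference was 0.18 ± 0.14 (limma adjusted p = 0.359). HSPB1 (7:76302673-76304292), also known as HSP27, is a small heat shock protein that holds unfolded proteins for HSP70. It had 8.54, 8.77 and 9.02 at 6 h with CCL, against 8.78, 8.14 and 8.73 untreated, and 8.17 and 8.17 at 48 h with CCL, against 8.58, 8.13 and 8.09 untreated. At 18 h it had 7.87, 8.31 and 8.40 with CCL, against 8.08 and 8.81 untreated, a difference of -0.25 (limma adjusted p = 0.501) that was -0.63 (adjusted p = 0.114) after quantile normalization. Its groups overlapped at every time in the deposited values, but after quantile normalization CCL arrays lay below untreated arrays at 18 and 24 h. Its mean difference was -0.05 ± 0.11 (95% confidence interval -0.28 to 0.18; limma adjusted p = 0.798). HSPA6, the HSP70 known for being nearly silent without heat stress, lay between 2.04 and 3.34 on all arrays and never exceeded 5; it is named here after its values were seen.

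**Figure D3:**
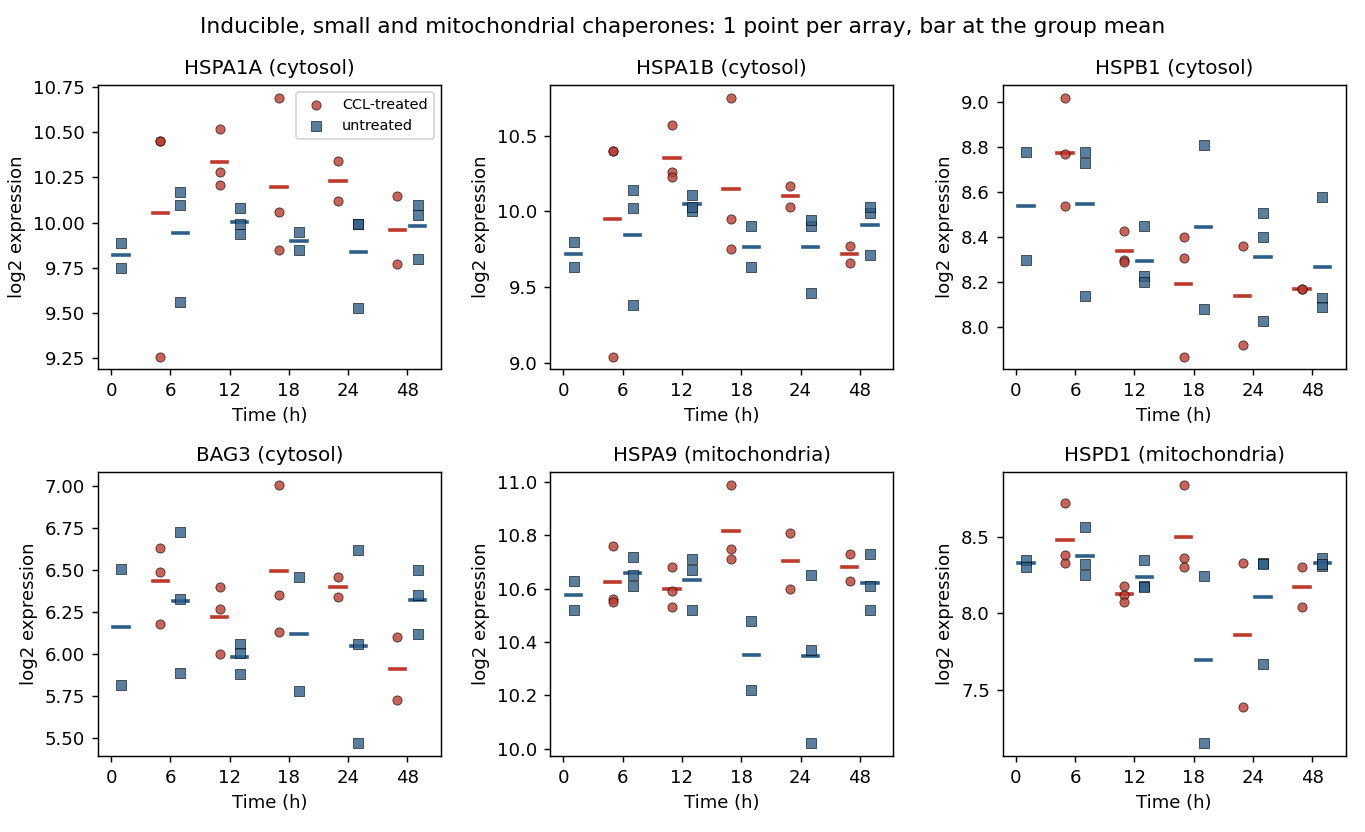
Log2 values by time of chaperones that are central to the cytosolic and mitochondrial systems, 1 point per array with a bar at the group mean, CCL (circles) and untreated (squares). For HSPA1A the CCL points lie above the untreated points at 12 and 24 h, and for HSPB1 the groups overlap at each time.

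The HSP110 proteins HSPH1, HSPA4 and HSPA4L release nucleotide from HSP70; over the 5 times HSPH1 was higher, HSPA4L was lower and HSPA4 did not pass. HSPH1 (13:31134973-31162388) had 9.43, 9.45 and 9.43 at 6 h with CCL, against 9.46, 9.29 and 9.51 untreated, and 9.71, 9.63 and 9.94 at 12 h with CCL, against 9.53, 9.64 and 9.65 untreated. At 18 h it had 9.53, 9.53 and 10.38 with CCL, against 8.60 and 9.25 untreated, and at 24 h 10.08 and 9.67 with CCL, against 8.49, 8.85 and 9.51 untreated. The groups did not overlap at 18 and 24 h, and they overlapped at 6, 12 and 48 h. At 48 h the values were 8.75 and 9.31 with CCL and 8.83, 8.95 and 9.49 untreated. HSPH1 rose by 0.38 ± 0.13 on average (limma adjusted p = 0.0275; 0.32 and adjusted p = 0.0202 after quantile normalization). The adjusted p was 0.0711 without the untreated 18 h array of set 1, 0.0771 without the CCL 24 h array of set 1 and 0.0568 without the CCL 48 h array of set 2. With the 6 arrays of unusual median left out the mean was 0.23 (limma adjusted p = 0.144).

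HSPA4L (4:127781796-127840733) had 7.58, 7.58 and 7.42 at 12 h with CCL, against 7.95 to 8.39 on the 3 untreated arrays, and the groups did not overlap. It had 7.70, 7.71 and 8.17 at 6 h with CCL, against 8.15, 8.06 and 8.14 untreated, and 7.77, 7.69 and 7.65 at 18 h with CCL, against 7.48 and 8.01 untreated. The CCL 24 h values were 5.98 and 7.85, against 7.14, 7.89 and 8.28 untreated, so set 1 carries most of the difference at that time. At 48 h it had 6.82 and 7.94 with CCL, against 7.73, 8.05 and 8.41 untreated. HSPA4L fell by a mean of 0.49 ± 0.17 (limma adjusted p = 0.0332), and without the CCL 24 h array of set 1 the mean was -0.30 (adjusted p = 0.148). It passed in 19 of 27 fits that each left out 1 array. HSPA4 had 8.49, 8.52 and 8.34 at 12 h with CCL, against 8.61, 8.58 and 8.53 untreated, and 8.82, 8.73 and 8.85 at 18 h with CCL, against 8.15 and 8.62 untreated, without overlap at either time but in opposite directions. After quantile normalization the 18 h groups overlapped, with a difference of 0.06. HSPA4 had a mean difference of 0.01 ± 0.11 (95% confidence interval -0.21 to 0.23; limma adjusted p = 0.963).

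BAG proteins carry a domain that binds the HSP70 ATPase region and link HSP70 to survival, degradation or autophagy factors. All 5 named BAG genes were tested, and BAG4 alone passed over the 5 times. BAG4, known as silencer of death domains, had 5.64, 5.92 and 6.23 at 6 h with CCL, against 6.24, 6.21 and 6.46 untreated, and 6.02 and 6.08 at 48 h with CCL, against 6.69, 6.71 and 6.50 untreated. The groups overlapped at 6 h and did not at 48 h, where they overlapped after quantile normalization. BAG4 fell by a mean of 0.30 ± 0.11 (limma adjusted p = 0.0466), and it passed in 7 of 27 fits that each left out 1 array. BAG1, which has a ubiquitin-like domain, had a positive difference at all 5 times in the deposited values but -0.05 at 18 h after quantile normalization, with a mean of 0.28 ± 0.12 that did not pass (limma adjusted p = 0.0845). Its 48 h values were 5.08 and 5.15 with CCL, against 4.75, 5.03 and 4.67 untreated. BAG3, an HSF1-induced gene that directs proteins to autophagy, had 6.13, 6.35 and 7.01 at 18 h with CCL, against 5.78 and 6.46 untreated, and a mean difference of 0.13 ± 0.13 (limma adjusted p = 0.506). BAG2 and BAG5 had mean differences of -0.03 ± 0.14 and -0.04 ± 0.12.

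Of the other HSP70 relatives, HSPA14 (10:14838306-14871741), which works at the ribosome, was lower at 48 h. It had 3.78 and 5.24 with CCL, against 5.57, 5.88 and 5.80 untreated, without overlap, and the difference was -1.24 ± 0.38 (limma adjusted p = 0.0496; -1.07 and 0.0193 after quantile normalization). The value of 3.78 on set 1 decides it: without that array the difference was -0.51 (limma adjusted p = 1). The untreated 18 h array of set 1 was also at 3.78, against 5.76 on set 3, and the CCL arrays at 18 h had 5.73, 5.76 and 5.76. Both arrays at 3.78 are among the 6 of unusual median, and their part in the result was not tested beyond leaving them out. HSPA12A, a distant HSP70 relative, had a mean difference of 0.15 ± 0.16 (limma adjusted p = 0.53). Its 2 probe sets correlated at r = 0.18 over the 29 arrays, but the unused one had a low mean of 2.46, against 5.41. FKBP5, an isomerase that binds HSP90 in steroid receptor complexes, had 3.53, 3.74 and 3.37 at 12 h with CCL, against 3.91, 3.94 and 4.07 untreated, without overlap, and a mean difference of 0.00 ± 0.13 (limma adjusted p = 0.998). These 12 h values all lie below the filter value of 5. FKBP5 exceeded 5 on only 2 arrays, CCL 18 h set 3 (5.53) and CCL 48 h set 1 (5.31). Both are CCL arrays of unusual median, and FKBP5 was tested only through them.

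In mitochondria, HSPA9 (mortalin) pulls imported proteins into the matrix and HSPD1 (HSP60) folds them. HSPA9 (5:138553756-138575401) had 10.75, 10.71 and 10.99 at 18 h with CCL, against 10.22 and 10.48 untreated, without overlap (a difference of 0.47, and 0.29 after quantile normalization), and 10.60 and 10.81 at 24 h with CCL, against 10.02, 10.37 and 10.65 untreated, with overlap. Its mean difference was 0.16 ± 0.08 (95% confidence interval -0.01 to 0.33; limma adjusted p = 0.154). HSPD1 (2:197486584-197500274) had 8.36, 8.30 and 8.84 at 18 h with CCL, against 7.15 and 8.24 untreated; the difference was 0.81 ± 0.28 (limma adjusted p = 0.0573), and 0.43 (adjusted p = 0.212) after quantile normalization. At 24 h it had 7.39 and 8.33 with CCL, against 7.67, 8.33 and 8.32 untreated. Its mean difference was 0.08 ± 0.12 (95% confidence interval -0.17 to 0.33; limma adjusted p = 0.683).

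FKBP7 (2:178463664-178478600), a peptidyl-prolyl isomerase of the ER, is the one ER member and was lower with CCL. It had 5.08, 5.04 and 5.04 at 6 h with CCL, against 5.18, 5.04 and 5.50 untreated, and 4.60, 4.72 and 4.04 at 12 h with CCL, against 4.72, 5.03 and 5.22 untreated. At 18 h it had 4.81, 4.75 and 4.62 with CCL, against 4.24 and 5.61 untreated, and at 24 h 3.51 and 5.12 with CCL, against 4.27, 5.24 and 5.19 untreated. At 48 h it had 3.40 and 4.65 with CCL, against 5.20, 5.12 and 5.09 untreated, the one time at which the groups did not overlap. FKBP7 fell by a mean of 0.52 ± 0.17 (limma adjusted p = 0.0265, and -0.55 with adjusted p = 0.0062 after quantile normalization). Its difference was negative at all 5 times, as it was for 555 of all 6529 tested genes. Without the CCL 24 h array of set 1 the adjusted p was 0.116, and without the CCL 48 h array of set 1 it was 0.0991; without the untreated 18 h array of set 3 it was 0.082.

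HSPBAP1 (3:122739999-122793831) had the largest mean difference among the tested members. It had 4.77, 5.29 and 5.15 at 6 h with CCL, against 4.74, 4.93 and 5.08 untreated, and 4.56, 4.87 and 4.39 at 12 h with CCL, against 4.28, 4.80 and 4.64 untreated. At 18 h it had 5.41, 5.21 and 5.90 with CCL, against 3.91 and 4.83 untreated. At 24 h it had 5.36 and 5.39 with CCL, against 3.58, 4.82 and 5.21 untreated, and at 48 h 5.26 and 5.26 with CCL, against 4.41, 4.51 and 4.93 untreated. The groups overlapped at 6 and 12 h and did not overlap at 18, 24 and 48 h. HSPBAP1 rose by a mean of 0.56 ± 0.14 (limma adjusted p = 0.00556; 0.58 and 0.000553 after quantile normalization), and it passed in all 27 fits that left out 1 array. HSPG2 had a mean difference of 0.00 ± 0.13. The plot of called members shows these values by time.

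**Figure D4:**
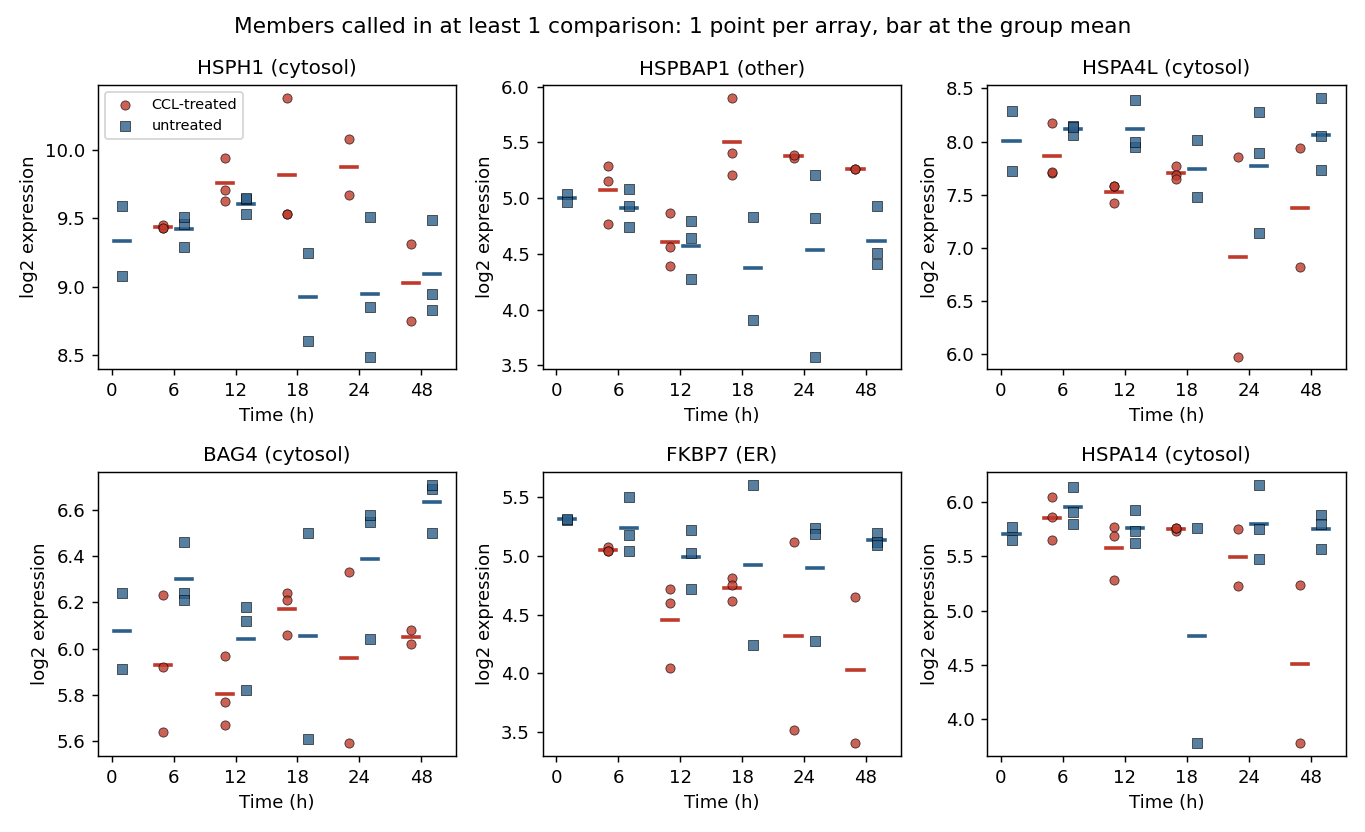
Log2 values by time of the 6 members that passed in at least 1 comparison, 1 point per array with a bar at the group mean, CCL (circles) and untreated (squares). HSPBAP1 with CCL lies above the untreated points at 18, 24 and 48 h, and FKBP7 with CCL lies below them at 48 h.

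By time, the test called 0 of 19 members at 6 h (0.306% of all genes called, 0.276% higher and 0.0306% lower, and 0 members at unadjusted p under 0.05) and 0 at 12 h (1.24% of all genes, 1.04% higher and 0.199% lower, and 0 members at unadjusted p under 0.05). At 18 h it called 2, HSPH1 (0.88 ± 0.29, limma adjusted p = 0.0484) and HSPBAP1 (1.13 ± 0.34, adjusted p = 0.0298), both higher, against 12.5% of all genes (12.3% higher and 0.184% lower). After quantile normalization these were 0.57 (adjusted p = 0.198) and 0.67 (adjusted p = 0.179). Without the untreated 18 h array of set 1, or without the CCL 18 h array of set 3, neither passed, and without the untreated 18 h array of set 3 the test called 8 members and 40.5% of all genes. At 24 h it called 0 (3.02% of all genes, 2.54% higher and 0.475% lower, and 3 members at unadjusted p under 0.05), and quantile normalization called HSPH1 (0.82, adjusted p = 0.0443) and HSPBAP1 (0.94, adjusted p = 0.0385). Leaving out the untreated 24 h array of set 3 gave the same pair (4.24% of all genes), and leaving out the CCL 24 h array of set 2 gave HSPA4L alone (5.87%). At 48 h it called HSPA14 alone (6.56% of all genes, 1.33% higher and 5.22% lower); leaving out the CCL 48 h array of set 2 gave 5 calls beside 32.3% of all genes, and leaving out each of the other 4 arrays of that time gave 0, beside 0.123% to 2.54%. These shares are read beside the all-gene shares and were not tested against them.

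Members whose CCL and untreated arrays did not overlap were counted at each time, in the deposited values and after quantile normalization. At 12 h, 3 members were higher (11.8% of all genes) and 3 lower (21.4%), and 4 and 4 after quantile normalization (15.7% and 17.6% of all genes). At 18 h, 6 were higher (32.5% of all genes) and 0 lower (2.56%), but after quantile normalization 4 were higher (18.2%) and 3 lower (17.7%), the 3 being HSPB1, HSPA4L and FKBP7. At 24 h, 4 were higher (13.9%) and 0 lower (5.39%), but after quantile normalization 4 were higher (15.5%) and 4 lower (12.1%), the 4 lower being HSPB1, BAG2, BAG4 and HSPA14. At 48 h, 2 were higher (10.3%) and 7 lower (29.5%), the 7 being HSPD1, BAG2, BAG3, BAG4, BAG5, HSPA14 and FKBP7. After quantile normalization 2 were higher (18.9%) and 3 lower (21.9%), the 3 being BAG5, HSPA14 and FKBP7. At 6 h none was separated (6.23% of all genes higher and 13.8% lower). The median difference of the members was 0.41 at 18 h and -0.23 at 48 h, against 0.41 and -0.26 for all genes, and after quantile normalization it was 0.06 and -0.06 for the members, against 0.00 and -0.05 for all genes.

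An F-test across all genes asked if CCL minus untreated varied by time, and it called 0 of 19 members (0.0153% of all genes, and 2 members at unadjusted p under 0.05). The smallest p among members were 0.00899 for HSPA14, 0.0467 for HSPH1 and 0.082 for HSPD1, each with a limma adjusted p of 0.45. Differences between times seen in single members are therefore not established. In untreated cells at 48 h against 6 h, 0 of 19 members were called (0.0153% of all genes, and 0 at unadjusted p under 0.05). HSPH1 was -0.33 ± 0.26, BAG4 was 0.33 ± 0.23 and HSPBAP1 was -0.30 ± 0.30.

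Other folding genes outside the members were counted from 8 lists. Averaged over the 5 times, 5 of 10 tested sensors and regulators of the unfolded protein response were higher and 1 lower. In the same comparison 885 of all 6529 tested genes were called higher and 721 lower (24.6% in either direction). The counts of the lists are read beside these all-gene counts and were not tested against them. ERN1, which encodes the ER sensor IRE1, rose by 1.08 ± 0.15 (limma adjusted p = 1e-05), TRIB3, an ATF4 target, rose by 0.68 ± 0.13 (adjusted p = 0.000479), ATF6 rose by 0.34 ± 0.10 (adjusted p = 0.0167) and CREB3L2 fell by 0.50 ± 0.13 (adjusted p = 0.00591). Among 21 tested ER folding factors, 0 were higher and 2 lower: CALR, the lectin chaperone calreticulin, fell by 0.23 ± 0.08 (adjusted p = 0.0392) and SDF2L1 fell by 0.32 ± 0.12 (adjusted p = 0.041), and each of these 2 passed in 11 of 27 fits that left out 1 array. Of 18 genes in the HSP90 list, 8 were tested: TRAP1, the mitochondrial HSP90, and PTGES3, CDC37, NUDC, STIP1, PPID, UNC45A and CHORDC1. No cytosolic or ER HSP90 was among them. Of these 8, UNC45A, a myosin chaperone, rose by 0.36 ± 0.12 (limma adjusted p = 0.0226) and none was called lower. Of 8 genes in the list of heat shock factors and targets, 3 were tested, the factor HSF1 and the targets UBB and CHORDC1, and none passed. CHORDC1 is also counted in the HSP90 list. None of 7 genes of the prefoldin list passed (5 prefoldin subunits and the phosducin-like genes PDCL and PDCL3). Nor did any of 9 ER-associated degradation genes, 8 other mitochondrial chaperones and proteases or 14 other isomerases. After quantile normalization, which called 35.4% of all genes, PDCL3 (0.33, limma adjusted p = 0.0275) and 4 of the 14 isomerases, all lower, also passed. The lower calls were then 3 among the ER folding factors and 2 in the unfolded protein response list. The median differences were 0.29 for the unfolded protein response list, -0.05 for the ER folding factors and 0.15 for the HSP90 list, against 0.01 for all genes.

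Of the 11 members below the level filter, none exceeded 5 on any array. With no filter, 1 was called at 18 h, the antisense RNA DNAJC9-AS1 (0.80 ± 0.23, limma adjusted p = 0.032; named after its values were seen), beside 10.4% of all genes, and 0 at the other times. After quantile normalization its difference was 0.39 (adjusted p = 0.246). HSPB8, a small heat shock protein that works with BAG3, was chosen after its values were seen. It had 2.91, 3.19 and 4.79 at 18 h with CCL, against 2.47 and 3.10 untreated. Its mean difference was 0.48 ± 0.17 with no filter (limma adjusted p = 0.0644). The highest HSPB8 values were on CCL arrays of unusual median: 18 h set 3 (4.79), 48 h set 1 (3.94), 24 h set 1 (3.69) and 6 h set 1 (3.57). The other CCL arrays of those times had 2.72 to 3.19, against 2.47 to 3.26 untreated. At 12 h, with no array of unusual median, it had 3.12, 3.10 and 3.36 with CCL, against 2.89, 2.65 and 2.78 untreated.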

How the data were processed

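Expression was measured in HepG2 cells on 29 Affymetrix arrays (13 with CCL, 16 without). The deposited log2 values were made by the authors with RMA in Affymetrix Expression Console 1.1, per the submitters' processing notes. Of 53617 probe sets, 16098 carried 1 gene symbol; a gene took its probe set with the highest mean. Genes above a log2 value of 5 on at least 2 arrays were tested with limma 3.58.1 in R 4.3.3, with 1 mean per group over all arrays (18 residual degrees of freedom), and adjusted p-values cover all 6529 tested genes. No count or depth exists for arrays; their number limits the precision. The fit was tested on simulated data. Members and gene lists were chosen with earlier results of these data known. Genes were named by a rule: listed members, up to 6 called per direction and comparison, the 3 smallest F-test p, and up to 4 per other list. Same-numbered sets correlated over 0.1 in 9 of 12 pairs (r from -0.0657 to 0.444). All 12 were required to take sets as pairs, since no label explains a set, so the main fit has no block. Alternatives were quantile normalization, no filter, the mean of probe sets, only the arrays compared, sets as blocks, array weights, and leaving out arrays. Promoters were matched by symbol to RefSeq (GRCh38.p14), which holds all 30 members by name and a promoter for 24.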

Additional observations from a re-analysis of the deposited data

Results flagged for a closer look

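HSPA4, an HSP110 protein, had CCL arrays all below the untreated arrays at 12 h (a difference of -0.12) and all above them at 18 h (0.42). HSPD1, the mitochondrial HSP60, had CCL arrays all above the untreated arrays at 18 h (0.81, and 0.43 after quantile normalization) and all below them at 48 h (-0.15). Each was noted because the groups separated in opposite directions at different times. Such separation was common: of all tested genes, 21.4% were lower at 12 h, 32.5% higher at 18 h and 29.5% lower at 48 h without overlap. The contrast between those times alone was not tested; the F-test over the 5 times gave a limma adjusted p of 0.627 for HSPA4 and 0.45 for HSPD1, and quantile normalization gave differences of 0.06 for HSPA4 at 18 h and 0.01 for HSPD1 at 48 h.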

How the results depend on the processing

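Each count of members called is followed by the share of all genes called in the same fit. Over the 5 times the count was 5 (24.6%), and it was 3 with no filter (11.2%) and 3 with the 6 arrays of unusual median left out (23.5%; chosen after seeing the data). At 18 h the 2 calls became 0 with quantile normalization (5.18%), only the arrays compared (0.888%), array weights (0.199%) or those 6 left out (0.904%). At 24 h the 0 calls became 2 with quantile normalization (6.89%) and 1 with array weights (5.71%). At 48 h the 1 call became 2 with quantile normalization (12.4%) and 0 with no filter (1.41%), only the arrays compared (0%), array weights (0.168%) or those 6 left out (0.444%). At 12 h the 0 calls became 1 with only the arrays compared (10.1%), 4 with array weights (31.1%) and 1 with those 6 left out (11.9%), and untreated 48 h against 6 h gave 2 with array weights (4.12%). The array-weight estimate raised 1 convergence warning. With the replicate block as a fixed term, the counts were 5 at 18 h (24.1%), 2 at 24 h (8.04%) and 2 at 48 h (13.8%). With the replicate block as a random term they were 7 at 18 h (34.6%), 2 at 24 h (9.14%), 3 at 48 h (20%) and 7 over the 5 times (35.5%), the last with BAG1 (0.29, limma adjusted p = 0.016) and HSPA9 (0.18, adjusted p = 0.0323) added; both blocks called HSPBAP1 and HSPH1 at 24 h. Leaving out 1 array gave 0 to 8 at 18 h, 0 to 2 at 24 h, 0 to 5 at 48 h, 1 to 6 over the 5 times, 0 to 2 in the F-test, and 0 at 6 h, at 12 h and in untreated cells. Without the CCL 24 h array of set 1, HSPBAP1 was the 1 member called over the 5 times; without the untreated 18 h array of set 3, or the CCL 48 h array of set 1, HSPBAP1 and HSPH1 were the 2. HSPBAP1 over the 5 times passed in all 8 alternatives and in all 27 fits without 1 array, with differences from 0.37 to 0.65; FKBP7 passed in 8 and 24, HSPH1 in 6 and 24, HSPA4L in 6 and 19, and BAG4 in 6 and 7. Outside the members, CALR passed in 7 of the 8 alternatives and 11 of the 27 fits, SDF2L1 in 6 and 11, and UNC45A in 6 and 25. CREB3L2 and ATF6 each passed in 7 and 27, and ERN1 and TRIB3 each in 8 and 27. With the 6 arrays of unusual median left out, CALR, SDF2L1, UNC45A and ATF6 did not pass. With array weights, UNC45A and CREB3L2 did not. The causes were not tested.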
